A study of Mus musculus with 39 samples.

Results

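The genes described here are 6 members of the mouse Klk1 family of tissue kallikreins, Klk1, Klk1b21, Klk1b22, Klk1b24, Klk1b26 and Klk1b27. They were found as the probe sets whose annotation includes 1 of these symbols, which gave 6 of the 41345 probe sets on the array, 1 for each gene. Of these, 5 carried 1 symbol, and the sixth carried both Klk1b26 and Egfbp2, which RefSeq lists as names of the same gene; it is read as a family signal. All 6 passed the filter on dim values, a mean above 4.62 (the 25th percentile of all log2 values) in at least 1 group, as did 21760 probe sets with a gene symbol in all.

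RNA of whole testis was measured on 39 Affymetrix GeneChip arrays, labelled as biological replicates of 8 groups; no label says whether testes were pooled. Mice with floxed Prkar1a alleles (Prkar1a fl/fl) carried Sf1:Cre in the line called prKO, Amh:Cre in srKO and Cyp11a1:Cre in lrKO, and the controls were wild-type (WT) littermates. At each age there were 8 WT, 4 srKO and 4 lrKO arrays, with 4 prKO arrays at 2 weeks and 3 at 2 months. The Sf1 promoter drives Cre in gonadal somatic precursors and in adrenal cortex. The Amh promoter does so in Sertoli cells, and the Cyp11a1 promoter in steroidogenic cells (Leydig cells, in a testis). Prkar1a codes for a regulatory subunit that holds protein kinase A inactive until cAMP binds it. Whole testis of every line also holds cells in which its Cre is not active. In such bulk RNA, fewer cells of a type and less RNA per cell cannot be told apart. The label on RNA extraction names adrenal glands, while the other labels name testis. The 10 probe sets of the spermatid marker list and the 15 of the Sertoli cell list were all above the filter value in WT at 2 months. They were so in WT at 2 weeks too, so this count alone does not tell which tissue was used. The log2 of the summed linear intensities in WT at 2 months was 14.80 to 15.02 for spermatids and 12.66 to 12.90 for Sertoli cells. For the adrenal cortex list it was 7.97 to 8.34.

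Tissue kallikreins are secreted serine proteases. Klk1 itself cuts kininogens and releases kinins, short peptides that widen vessels and raise their permeability through the bradykinin receptors. In the mouse the family has expanded into a tandem cluster on chromosome 7, whose Klk1b genes code for closely related proteases. Some of these were first known as binding partners of growth factors in the salivary gland, among them Klk1b22 as an epidermal growth factor (EGF) binding protein, and Klk1b21, Klk1b24 and Klk1b27 are known from Leydig cells of the adult mouse testis.

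The stretches just upstream of the start sites show how alike the members are, and they are given for Klk1 and for the 3 members whose changes are described most closely. Each holds the 250 bases before the RefSeq start on build GRCm38.p6, 5′ to 3′. Capitals mark AGGTCA or its reverse complement TGACCT, the half-site bound by nuclear receptors such as the product of Nr5a1 (also called Sf1), and TTTAAA, a variant of the TATA box.
Klk1, chr7:44225110-44225359, plus strand: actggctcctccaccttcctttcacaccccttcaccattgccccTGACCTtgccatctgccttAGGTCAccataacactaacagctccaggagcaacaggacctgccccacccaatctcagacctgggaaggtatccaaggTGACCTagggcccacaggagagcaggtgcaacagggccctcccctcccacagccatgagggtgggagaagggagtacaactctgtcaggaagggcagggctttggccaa
Klk1b24, chr7:44187986-44188235, plus strand: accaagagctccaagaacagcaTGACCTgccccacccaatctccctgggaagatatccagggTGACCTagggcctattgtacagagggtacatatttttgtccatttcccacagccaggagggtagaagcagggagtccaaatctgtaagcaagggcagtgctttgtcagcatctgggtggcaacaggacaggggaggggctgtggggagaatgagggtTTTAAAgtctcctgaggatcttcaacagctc
Klk1b27, chr7:44052040-44052289, plus strand: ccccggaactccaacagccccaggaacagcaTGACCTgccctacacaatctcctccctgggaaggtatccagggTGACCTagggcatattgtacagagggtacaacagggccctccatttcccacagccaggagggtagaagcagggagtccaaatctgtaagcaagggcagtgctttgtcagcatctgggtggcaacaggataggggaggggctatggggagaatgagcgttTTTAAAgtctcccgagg
Klk1b22, chr7:44112423-44112672, plus strand: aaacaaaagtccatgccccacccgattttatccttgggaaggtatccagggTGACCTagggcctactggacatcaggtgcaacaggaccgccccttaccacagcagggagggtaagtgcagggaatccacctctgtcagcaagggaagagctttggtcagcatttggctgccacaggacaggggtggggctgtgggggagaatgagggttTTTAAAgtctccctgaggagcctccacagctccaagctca
All 6 members matched 1 RefSeq promoter each. Over the aligned bases, Klk1b21, Klk1b24 and Klk1b27 were 91.9% to 97.7% identical to one another upstream of the start, with 97.7% between Klk1b21 and Klk1b24. Klk1b22 was 78.5% to 80.4% identical to these 3, and Klk1 was 76.6% to 80.6% identical to the other 5 members. AGGTCA, searched on both strands, was found in 5 of the 6 windows, all but that of Klk1b26, and in 14.0% of 32851 RefSeq windows of the same length. Of the 14 Klk1 family genes, these 6 included, 11 had AGGTCA, so it is not particular to the members. The longer form CAAGGTCA, which contains it, was found in Klk1 and Klk1b21 and in 1.33% of all windows. In Klk1b21 it began 247 bases before the start, at the edge of the window. The matching position in Klk1b24 and Klk1b27 lies outside their windows, so its absence there is not shown. TTTAAA, which reads the same on both strands, was found in 4 members (Klk1b22, Klk1b24, Klk1b26 and Klk1b27) at 17 to 40 bases before the start. It was in 12.1% of all windows and in 12 of the 14 family genes. The windows of Klk1 and Klk1b21 end short of the matching position, so they do not show whether these 2 genes have it. The TATA box TATAAA was in none of the 6 windows and in 12.4% of all. The cAMP response element TGACGTCA (1.55% of all windows), its half-site TGACG (17.8%) and the full palindromic androgen response element (0.00913%) were in none of the 6, and the androgen half-site AGAACA (16.1%) was in Klk1b24 alone. These are matches of letters and were not tested for binding.

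The targeted gene Prkar1a fell at 2 weeks in prKO (-0.78 ± 0.07, adjusted p = 4.93e-07) and in srKO (-0.48 ± 0.07, adjusted p = 0.00233), and at 2 months in prKO (-0.30 ± 0.09, adjusted p = 0.00826). In lrKO it stood at 0.05 and 0.04 (adjusted p = 0.84 and 0.942). At 2 months the srKO-labelled arrays had more of it than WT (0.24 ± 0.08, adjusted p = 0.0322), against what their label would give, so that srKO below means the arrays labelled srKO, and directions drawn from them are those of the label. The position of the deleted part in the probe set is not known here. Between arrays the medians of all values differed little, from 5.81 to 6.02. Markers of salivary gland ducts, a main site of mouse tissue kallikreins, summed to between 7.64 and 8.48 (log2) in all arrays. At 2 months they ran from 8.31 to 8.48 in prKO and from 7.92 to 8.25 in WT. The cause of that difference was not tested. In 6 arrays the epididymal gene Adam7 stood above the rest (5.56 to 11.70), and results that rest on these arrays are given with and without them.

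In WT testis the family was low at 2 weeks and high at 2 months. Klk1 lay between 4.20 and 5.73 in the 8 WT arrays at 2 weeks (median 4.69) and between 8.19 and 8.87 at 2 months (median 8.51). Klk1b27 went from 3.89 to 5.31 (median 4.56) at 2 weeks to between 8.48 and 9.87 (median 9.17) at 2 months. Klk1b24 went from between 5.78 and 7.92 (median 7.07) to between 10.48 and 11.05 (median 10.73). In these 3, and in Klk1b22 (4.10 to 4.96 against 6.83 to 9.11) and Klk1b21 (4.71 to 5.43 against 6.26 to 7.48), the ages did not overlap. The Klk1b26 and Egfbp2 probe set moved least, from between 4.64 and 5.55 to between 5.17 and 5.65, and there the ages overlapped.

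The fold between ages was largest for Klk1b27, at least 20.4-fold (log2 difference 4.54 ± 0.32 SE, adjusted p = 2.27e-15 by limma with Benjamini-Hochberg adjustment, as for all adjusted p here). Folds are given as at least where arrays lay below the filter value, which then stood in for them. Klk1b24 rose 14.0-fold (3.81 ± 0.29), Klk1 at least 11.8-fold (3.72 ± 0.22), Klk1b22 at least 8.07-fold (3.27 ± 0.35) and Klk1b21 3.37-fold (1.75 ± 0.22). The Klk1b26 and Egfbp2 probe set rose 1.26-fold (0.33 ± 0.10, adjusted p = 0.00292). All 6 were thus called higher at 2 months, with a median difference of 3.49; of all probe sets tested, 27.0% were called higher, with a median of -0.23. Markers of spermatids, which appear between these ages, were higher too: their summed level, the log2 of the sum of linear intensities over the list, ran from 10.39 to 10.63 in WT at 2 weeks and from 14.80 to 15.02 at 2 months. That of the adult Leydig cell markers was 11.31 to 12.30 and 12.79 to 13.31. The part of either cell type in the rise was not tested.

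**Figure D1:**
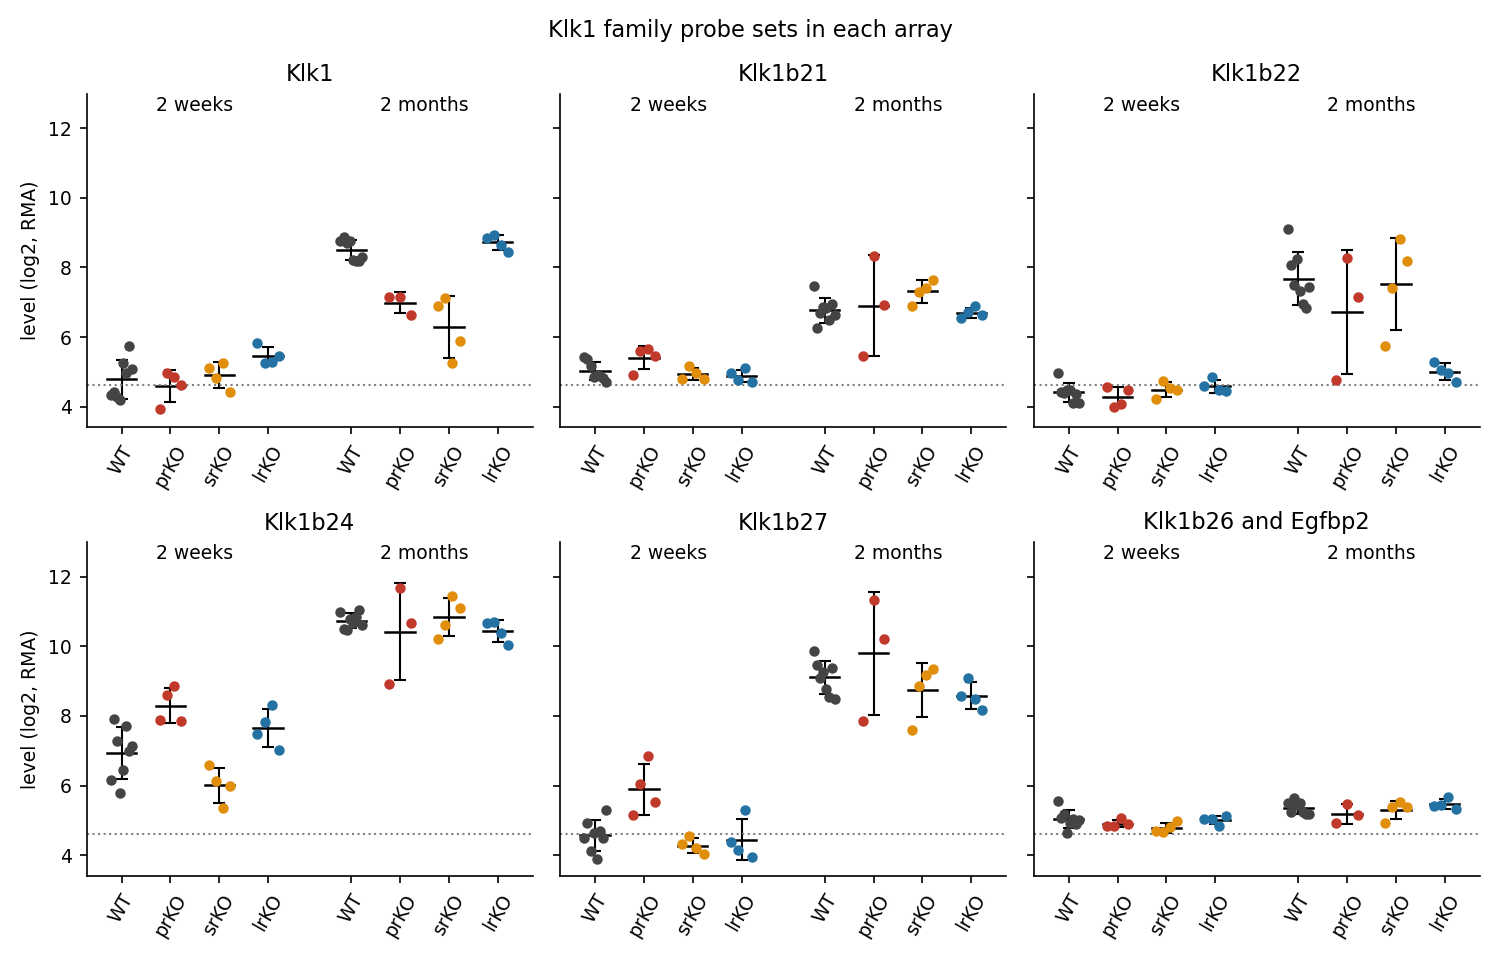
Level of each Klk1 family probe set (log2 intensity after RMA, the authors' normalization; vertical axes) in each of the 39 arrays (points) of the 4 genotypes at both ages (horizontal axes), with the mean and SD of each group in black and the filter value of 4.62 as a dotted line. Klk1 in prKO and srKO at 2 months sits at 7.16 or lower, below all WT arrays, and Klk1b22 in lrKO at 2 months lies between 4.69 and 5.29, below all WT arrays.

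Klk1, the kinin-releasing member, was lower at 2 months in prKO and in the arrays labelled srKO, and no fall was called in those labelled lrKO. The 3 prKO arrays read 7.16, 7.15 and 6.63, and the 4 srKO arrays 6.89, 7.13, 5.24 and 5.88. All 7 lay below the lowest of the 8 WT arrays (8.19), while the 4 lrKO arrays, at 8.86, 8.93, 8.65 and 8.44, lay within or just above the WT range. Against WT, Klk1 fell 2.87-fold in prKO (-1.52 ± 0.28, adjusted p = 0.000196) and 4.65-fold in srKO (-2.22 ± 0.26, adjusted p = 3.03e-06). In lrKO the difference was 0.21 ± 0.26 (adjusted p = 0.883, 95% interval -0.32 to 0.75).

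It was the only member called in either line at that age, 1 of 6, beside 22.6% of all probe sets called lower in prKO and 10.3% in srKO. Klk1 was also lower in both lines than in lrKO, with a difference of -1.74 ± 0.32 in prKO (adjusted p = 0.000189) and -2.43 ± 0.30 in srKO (adjusted p = 6.43e-06). In each of these pairs 1 of 6 members was called lower, Klk1, and 1 higher, Klk1b22, beside 20.3% lower and 24.3% higher of all probe sets in prKO and 10.8% and 14.2% in srKO. Between prKO and srKO, where 24.9% of all probe sets were called, 0 of 6 members were called by limma (1 at an unadjusted p under 0.05), and Klk1 differed by 0.69 ± 0.32 (adjusted p = 0.118; 0.98, adjusted p = 0.0216, without srKO replicate 2). The order of the group means at 2 months was thus lrKO (8.72), WT (8.50), prKO (6.98) and srKO (6.29), with no call between neighbours except WT and prKO.

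Spermatid markers moved with Klk1 in these groups. Their summed level was 13.56 to 14.36 in prKO, 13.35 to 14.13 in srKO, 14.92 to 15.05 in lrKO and 14.80 to 15.02 in WT at 2 months. Other marker lists moved too. In prKO and srKO, 9 and 8 of 10 macrophage probe sets were called higher, and 7 and 5 of 7 of endothelium. Of Sertoli cells 10 and 6 of 15 were called higher, and of peritubular myoid cells 4 and 2 of 5. Of 10 adult Leydig probe sets, 6 were called higher and 1 lower in prKO, and 5 and 1 in srKO. In prKO 6 of 8 of meiotic prophase were called lower. Over all probe sets, 24.8% were called higher and 22.6% lower in prKO, and 13.7% and 10.3% in srKO. Of the 10 spermatid probe sets, 9 were called lower and 1 higher in prKO, 8 lower in srKO and 0 in lrKO. The part of these cells in the level of Klk1 was not tested. The WT arrays also parted by replicate number: replicates 1 to 4 read 8.71 to 8.87 and replicates 5 to 8 read 8.19 to 8.31 at 2 months, while at 2 weeks replicates 1 to 4 read 4.20 to 4.41 and replicates 5 to 8 read 4.97 to 5.73. The falls in prKO and srKO were called under every alternative run, both sets of WT replicates on their own included, at -1.25 to -1.87 in prKO and -1.87 to -2.50 in srKO.

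At 2 weeks Klk1 was near the filter value in all groups. The prKO arrays read 3.94, 4.96, 4.84 and 4.62, the srKO arrays 5.11, 4.83, 5.25 and 4.43, and the lrKO arrays 5.83, 5.26, 5.27 and 5.46. The lrKO arrays were the highest on average, and 1 of them lay above all WT arrays. Their difference from WT was 0.67 ± 0.26 (adjusted p = 0.449). It was 1.15 (adjusted p = 0.00575) against WT replicates 1 to 4 alone and 1.15 (adjusted p = 0.0175) with the replicate number as a block. Against WT replicates 5 to 8 alone it was 0.19 and was not called. The prKO difference from WT (-0.19, adjusted p = 0.684) also turned on the WT arrays used. It was 0.28 (adjusted p = 0.563) against WT replicates 1 to 4 and -0.67 (adjusted p = 0.0413) against replicates 5 to 8. Against lrKO, prKO stood at -0.86 ± 0.30 (adjusted p = 0.0535; called in 5 of 19 alternatives).

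**Figure D2:**
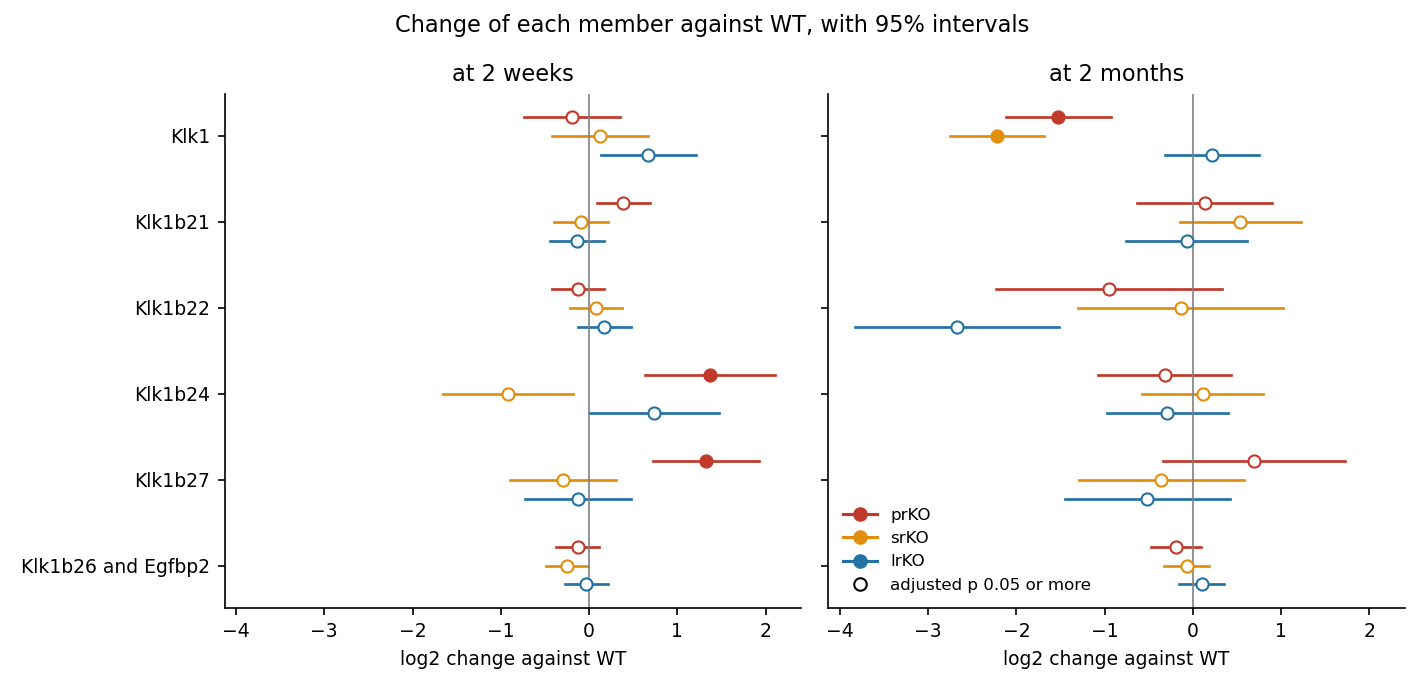
Log2 change against WT (horizontal axis) of each Klk1 family probe set in the 3 lines, at 2 weeks (left) and at 2 months (right), with 95% intervals of the limma fit as lines; filled points have an adjusted p under 0.05. Filled points are seen for Klk1b24 (1.37) and Klk1b27 (1.32) in prKO at 2 weeks and for Klk1 in prKO (-1.52) and srKO (-2.22) at 2 months, and Klk1b22 in lrKO at 2 months has the lowest value, -2.68.

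The Leydig cell kallikreins Klk1b24 and Klk1b27 were higher in prKO at 2 weeks. Klk1b27 read 5.14, 6.06, 6.84 and 5.52 in the prKO arrays, against 3.89 to 5.31 in WT; 3 of the 4 lay above all WT arrays. Klk1b24 read 7.89, 8.61, 8.86 and 7.84, against 5.78 to 7.92 in WT, and 2 of the 4 lay above all WT arrays. Klk1b27 rose at least 2.20-fold (1.32 ± 0.29, adjusted p = 0.00478), and Klk1b24 rose 2.58-fold (1.37 ± 0.35, adjusted p = 0.0163). These were 2 of the 6 members, beside 7.50% of all probe sets called higher in that comparison.

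Klk1b21, the most like them upstream of the start, read 4.92, 5.59, 5.67 and 5.46 in the same prKO arrays and 4.71 to 5.43 in WT. Its difference was 0.39 ± 0.15 (adjusted p = 0.0964), and it passed the threshold when the WT group held replicates 5 to 8 only (0.58, adjusted p = 0.00718), with array weights (0.46, adjusted p = 0.0289), without WT replicate 1 (adjusted p = 0.0438) and without prKO replicate 1 (0.55, adjusted p = 0.0201). The call for Klk1b24 was lost without prKO replicate 2 (1.27, adjusted p = 0.0583) or 3 (1.18, adjusted p = 0.0655) and against WT replicates 1 to 4 alone (1.51, adjusted p = 0.0595). That for Klk1b27 was kept in all 25 alternatives, at 1.01 to 1.57. The prKO array of replicate 3, the highest for all 3 genes, was also high in the epididymal gene Adam7 (7.08, with a median of 4.46 at this age).

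Markers of adult Leydig cells moved the same way. Their summed level was 13.43 to 13.93 in the prKO arrays at 2 weeks and 11.31 to 12.30 in WT, and 7 of 10 probe sets were called higher. In srKO (11.52 to 11.93) and lrKO (11.18 to 11.76) it lay within or just below the WT range. Markers of the adrenal cortex (summed level 9.78 to 11.16 in prKO and 7.67 to 8.39 in WT), of macrophages (11.46 to 11.76 and 10.72 to 11.48) and of endothelium (11.02 to 11.59 and 10.57 to 11.35) were also higher, with 2 of 4, 5 of 10 and 4 of 7 tested probe sets called. Of all probe sets tested, 7.50% were called higher in prKO at 2 weeks. The part of these cell types in the level of Klk1b24 and Klk1b27 was not tested.

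In the other lines at 2 weeks no difference from WT was called for these 3 genes, and srKO and lrKO lay apart in Klk1b24. It read 6.59, 6.12, 5.36 and 5.97 in srKO and 7.47, 7.84, 8.31 and 7.03 in lrKO; no srKO array reached the lowest lrKO array. In Klk1b27 the 2 lines overlapped (4.02 to 4.56 in srKO and 3.95 to 5.28 in lrKO), as they did in Klk1b21. Against WT the difference was -0.92 ± 0.35 in srKO (adjusted p = 0.236) and 0.73 ± 0.35 in lrKO (adjusted p = 0.555). By limma 0 of 6 members were called in srKO (2 at an unadjusted p under 0.05; 2 with array weights, Klk1b24 and the Klk1b26 and Egfbp2 probe set) and 0 of 6 in lrKO (1 at an unadjusted p under 0.05), where 0.763% and 0.101% of all probe sets were called. Between the lines, Klk1b24 was 3.15-fold lower in srKO than in lrKO (-1.65 ± 0.41, adjusted p = 0.0427), 1 of 6 members, beside 0.354% of all probe sets called lower. That call was lost in 8 of 19 alternatives, among them leaving out srKO replicate 1, 2 or 3 or any 1 of the 4 lrKO replicates (adjusted p up to 0.151).

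Against srKO, prKO was higher in Klk1b24 by 4.89-fold (2.29 ± 0.41, adjusted p = 0.0012) and in Klk1b27 by at least 2.41-fold (1.62 ± 0.33, adjusted p = 0.0034), 2 of 6 members, beside 6.68% of all probe sets called higher. Against lrKO, prKO was higher in Klk1b27 by at least 2.15-fold (1.45 ± 0.33, adjusted p = 0.00642) and in Klk1b21 by 1.44-fold (0.53 ± 0.17, adjusted p = 0.0389), 2 of 6 members, beside 10.2% of all probe sets called higher. The Klk1b21 call was lost in 8 of 19 alternatives, without prKO replicate 2, 3 or 4 or lrKO replicate 1, 2 or 4 among them (adjusted p up to 0.113), and with all 8 groups in 1 fit (adjusted p = 0.248). For Klk1b24 the order of group means at 2 weeks was prKO (8.30), lrKO (7.66), WT (6.93) and srKO (6.01), and no neighbours in it were called apart; for Klk1b27 it was prKO (5.89), WT (4.57), lrKO (4.44) and srKO (4.27), with prKO called apart from each of the others.

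At 2 months Klk1b21, Klk1b24 and Klk1b27 were high in all groups, and the 3 prKO arrays were far apart. Klk1b27 read 7.86, 11.33 and 10.20 in prKO replicates 1, 2 and 3, against 8.48 to 9.87 in WT. Klk1b24 read 8.91, 11.68 and 10.66, against 10.48 to 11.05 in WT, and Klk1b21 read 5.44, 8.34 and 6.93, against 6.26 to 7.48 in WT. In each gene replicate 1 was below and replicate 2 above all 8 WT arrays. The differences of prKO from WT were 0.69 ± 0.49 for Klk1b27 (adjusted p = 0.27), -0.32 ± 0.36 for Klk1b24 (adjusted p = 0.50) and 0.13 ± 0.36 for Klk1b21 (adjusted p = 0.796).

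These prKO values rest on single arrays. The array of prKO replicate 1 was high in Adam7 (11.70, with a median of 4.40 at 2 months), and the summed level of the epididymal list reached 11.83 in it, while it was at most 8.30 in every other array of 2 months. Without that array Klk1b27 stood 1.66 above WT (adjusted p = 0.00178) and Klk1b21 0.86 above (adjusted p = 0.0164), Klk1b24 turned to 0.43 (adjusted p = 0.195) and Klk1b22 to 0.03 (adjusted p = 0.973). Without prKO replicate 2, Klk1b24 stood at -0.95 (adjusted p = 0.0235) and Klk1b22 at -1.72 (adjusted p = 0.0378). In srKO, Klk1b21 read 6.88, 7.30, 7.41 and 7.64 and differed from WT by 0.54 ± 0.33 (adjusted p = 0.269; 0.0427 with only these 2 groups in the fit), Klk1b24 by 0.11 ± 0.33 (adjusted p = 0.858) and Klk1b27 by -0.36 ± 0.45 (adjusted p = 0.629). In lrKO the 3 genes differed from WT by -0.07 ± 0.33, -0.29 ± 0.33 and -0.52 ± 0.45 (adjusted p = 0.979, 0.875 and 0.818). Adult Leydig markers summed to 13.57 to 14.17 in prKO, 13.03 to 13.58 in srKO and 12.62 to 12.91 in lrKO, against 12.79 to 13.31 in WT. Markers of fat tissue ran from 8.29 to 11.48 and those of the adrenal cortex from 9.88 to 10.98 in the prKO arrays, against at most 8.39 and 8.34 in WT; their part in the spread was not tested.

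Within a group at 2 months, arrays high in 1 of these Klk1b genes tended to be high in the others. Over the 19 arrays of 2 months, with each group's mean removed, Pearson's r between Klk1b21, Klk1b22, Klk1b24 and Klk1b27 was 0.77 to 0.89 in the 6 pairs, and r of each of them with Klk1 was -0.11 to -0.34. The pairs of highest upstream identity, Klk1b21, Klk1b24 and Klk1b27, had r of 0.86 to 0.89, and Klk1b22, less alike in sequence, had 0.77 to 0.88 with them. The points are whole testes that share the cell makeup of each mouse, and r is given as a description. Without the 3 prKO arrays, over 16 arrays, r in the 6 pairs was 0.56 to 0.81, and r with Klk1 was -0.12 to -0.59, the last with Klk1b24. The 16 arrays still include some high in Adam7, and r was not taken without those. At 2 weeks, over 20 arrays and with group means removed, the pairs differed in sign. Between Klk1b24 and Klk1b27 r was 0.53, between Klk1b21 and Klk1b27 0.42, and between Klk1b21 and Klk1b24 0.26. Klk1b22 had r of 0.18 with Klk1b21, -0.44 with Klk1b27 and -0.53 with Klk1b24. The paralogs are close in sequence, so a probe may also bind the RNA of a neighbour; the probe sequences were not used here, and the size of this was not tested.

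**Figure D3:**
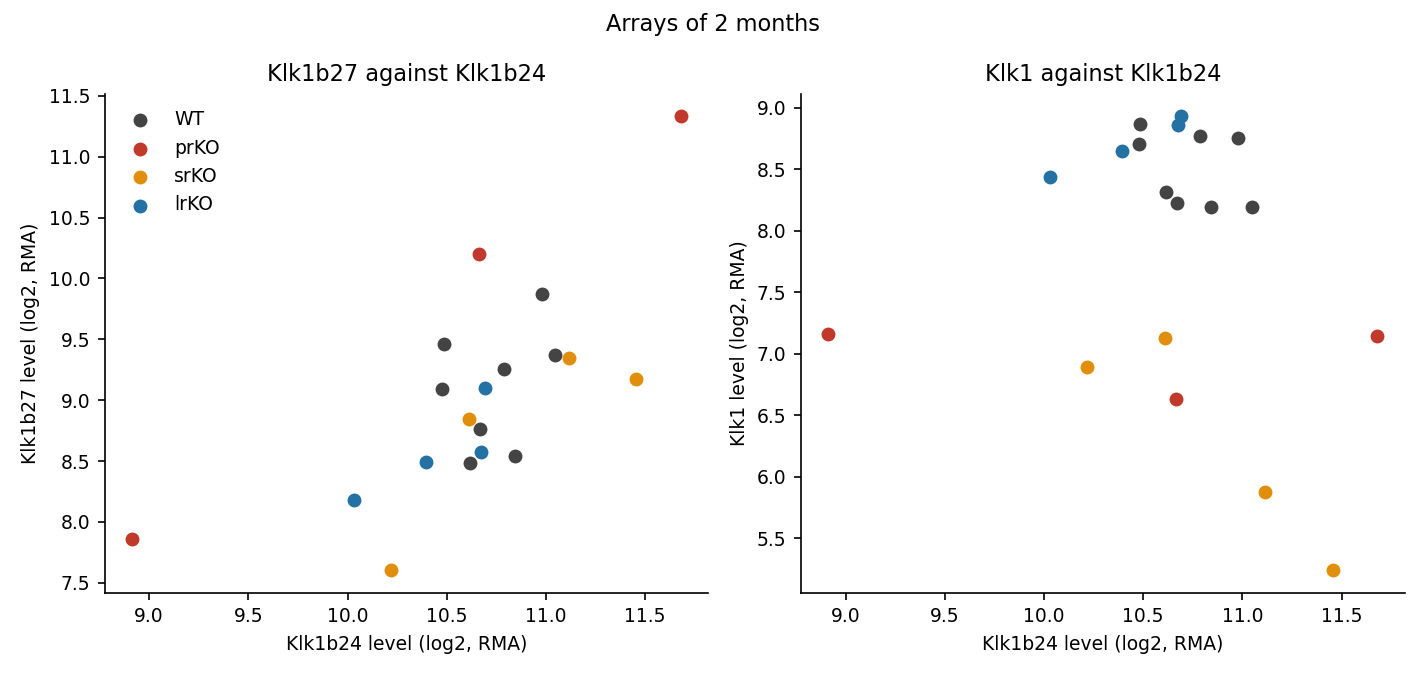
Levels (log2 intensity) of Klk1b27 (left, vertical axis) and Klk1 (right, vertical axis) against Klk1b24 (horizontal axes) in each of the 19 arrays of 2 months, coloured by genotype. The prKO arrays run from 8.91 to 11.68 in Klk1b24 and from 7.86 to 11.33 in Klk1b27, while their Klk1 stays between 6.63 and 7.16.

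Klk1b22, 1 of the EGF-binding proteins of the family, was low in the lrKO arrays at 2 months. The 4 lrKO arrays read 5.29, 5.07, 4.95 and 4.69, against 6.83 to 9.11 (median 7.46) in the 8 WT arrays. All 4 lay below every WT array. The difference was -2.68 ± 0.55, a fold of 6.39, and missed the threshold (adjusted p = 0.0536, 95% interval -3.83 to -1.52), so that by limma 0 of 6 members were called in lrKO at 2 months (1 at an unadjusted p under 0.05), beside 0.198% of all probe sets. It was called in 6 of 25 alternatives, at an adjusted p of 0.000316 with all 8 groups in 1 fit and 0.000837 with only these 2 groups, and its adjusted p reached 0.495 against WT replicates 5 to 8 alone (-2.13).

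The spread of Klk1b22 in the other groups was wide. The prKO arrays read 4.78, 8.27 and 7.14 and the srKO arrays 5.75, 7.39, 8.80 and 8.19, so that prKO replicate 1 and srKO replicate 1 lay below all WT arrays. The differences from WT were -0.95 ± 0.61 in prKO (adjusted p = 0.221) and -0.14 ± 0.55 in srKO (adjusted p = 0.899). Against lrKO, Klk1b22 was 5.80-fold higher in srKO (2.54 ± 0.64, adjusted p = 0.00612), called in all 19 alternatives. In prKO it was 3.31-fold higher than in lrKO (1.73 ± 0.69, adjusted p = 0.0484), a call lost in 11 of 18 alternatives, among them leaving out prKO replicate 2 (0.96, adjusted p = 0.295) or 3 (adjusted p = 0.149) or any 1 of the 4 lrKO replicates. Without prKO replicate 1, the array highest in Adam7, it was 2.70 (adjusted p = 0.00168). WT replicates 1 to 4 (7.49 to 9.11) lay above replicates 5 to 8 (6.83 to 7.44). In the lrKO arrays at 2 months 2 of 10 adult Leydig probe sets were called lower, beside 0.0873% of all probe sets. The part of Leydig cells in the level of Klk1b22 was not tested. At 2 weeks Klk1b22 lay between 4.00 and 4.96 in all 20 arrays, and no difference from WT was called.

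The Klk1b26 and Egfbp2 probe set was called in no line (with array weights, -0.29 and an adjusted p of 0.0461 in srKO at 2 weeks). It lay between 4.64 and 5.55 in the 20 arrays of 2 weeks and between 4.91 and 5.68 in the 19 of 2 months. The differences from WT were between -0.25 and 0.10 in the 6 comparisons, with an adjusted p of at least 0.272. The 95% intervals reached from -0.49 to 0.36 at most.

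The change against WT differed between the ages for 3 members. Taken as the change at 2 months minus that at 2 weeks, Klk1 gave -1.33 ± 0.40 in prKO (adjusted p = 0.0112) and -2.34 ± 0.38 in srKO (adjusted p = 2.5e-05). Klk1b24 gave -1.69 ± 0.53 in prKO (adjusted p = 0.015), which was no longer called without prKO replicate 1 of 2 months (-0.94, adjusted p = 0.169). These were 2 of 6 members in prKO, beside 12.8% of all probe sets called lower, and 1 of 6 in srKO, beside 8.46%. The Klk1 value in prKO missed the threshold when the WT groups held replicates 5 to 8 only (-0.58, adjusted p = 0.333) and without prKO replicate 3 of 2 months (adjusted p = 0.0537). Klk1b22 gave -2.85 ± 0.60 in lrKO (adjusted p = 0.0396), 1 of 6 members, beside 0.0460% of all probe sets called lower. That call was lost in 20 of 36 alternatives, 18 of which left out a single array, with an adjusted p of at most 0.121 among those 18 and values of -2.65 to -2.95.

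The other Klk1b genes of the cluster gave 6 tested probe sets. Klk1b8, which neighbours Klk1b1 at one end of the cluster, was below the filter value in all WT arrays at 2 weeks (3.09 to 3.51) and lay between 9.94 and 10.39 at 2 months, where it was called higher (adjusted p = 5.8e-28). At 2 months it fell by 2.49 ± 0.32 in prKO (adjusted p = 4.17e-06) and by 3.03 ± 0.29 in srKO (adjusted p = 4.93e-07), with 0.02 in lrKO (adjusted p = 0.998). Klk1b5, which lies next to Klk1 in the order of the genes, fell by 1.09 ± 0.23 in prKO (adjusted p = 0.000596) and by 1.68 ± 0.21 in srKO (adjusted p = 6.08e-06), with 0.18 in lrKO. Klk1b1 rose in prKO (1.26 ± 0.40, adjusted p = 0.0135), where its 3 arrays ran from 3.38 to 6.71, and Klk1b9 fell by 0.60 in srKO (adjusted p = 0.0238). In all, 1 rose and 2 fell of 6 in prKO (median -0.19, with 0.01 over all probe sets, of which 24.8% were called higher and 22.6% lower) and 0 rose and 3 fell in srKO (median -0.48, with 0.03 over all, 13.7% higher and 10.3% lower). In lrKO at 2 months and in the 3 lines at 2 weeks 0 of 6 were called by limma (0, 0, 1 and 1 at an unadjusted p under 0.05 in lrKO at 2 months and in prKO, srKO and lrKO at 2 weeks). The pseudogene Klk1b7-ps, named after its values were seen, fell by 1.43 ± 0.24 in prKO and by 1.57 ± 0.21 in srKO at 2 months.

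**Figure D4:**
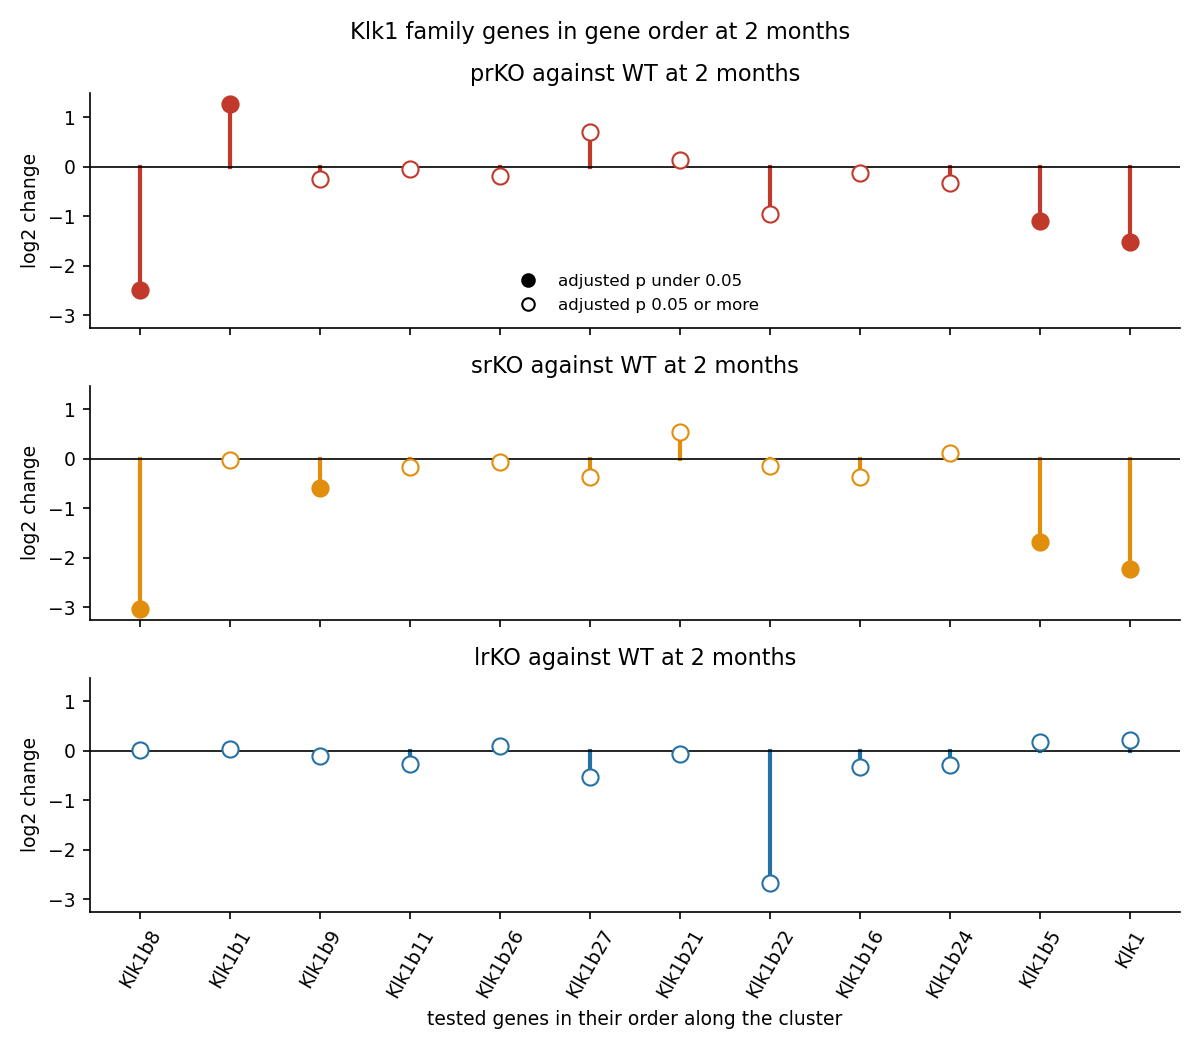
Log2 change against WT at 2 months (vertical axes) of the 12 tested Klk1 family genes in their order along the cluster (horizontal axis), for prKO, srKO and lrKO from top to bottom; filled points have an adjusted p under 0.05. The falls of Klk1b8 (-2.49 and -3.03), Klk1b5 (-1.09 and -1.68) and Klk1 (-1.52 and -2.22) in prKO and srKO lie at both ends of the row, and in lrKO Klk1b22, in its middle, stands at -2.68.

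The kallikrein-related genes outside the Klk1 family gave 10 tested probe sets. By limma 0 of 10 were called against WT in each of the 6 comparisons (0 or 1 at an unadjusted p under 0.05), and in WT 4 fell with age by 0.16 to 0.24, beside 54.2% of all probe sets called lower and a median of -0.23 over all.

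The kinin pathway list holds the kininogens, the bradykinin receptors, enzymes that form or degrade kinins, protease inhibitors and the angiotensinogen gene Agt. Of this list, 14 probe sets were tested. In prKO at 2 weeks 4 rose and 0 fell (median 0.14, with -0.02 over all probe sets, of which 7.50% were called higher and 2.53% lower): the aminopeptidase gene Xpnpep2 (1.21), the kinin-degrading Ace (0.96) and the protease inhibitors Serping1 (0.80) and Serpina5 (0.76). In prKO at 2 months 8 rose and 1 fell (median 0.58, with 0.01 over all, 24.8% higher and 22.6% lower), among them Serping1, the C1 inhibitor (2.14 ± 0.15), the endopeptidase gene Mme (1.61 ± 0.15), the dipeptidyl peptidase gene Dpp4 (1.35 ± 0.50) and the kininogen gene Kng2 (1.22 ± 0.26). In srKO at 2 months 4 rose (Serping1 at 1.36, Mme at 1.17, Serpina5 at 0.57 and Xpnpep2 at 0.56) and 1 fell (median 0.04, with 0.03 over all, 13.7% higher and 10.3% lower). In lrKO at both ages and in srKO at 2 weeks 0 of 14 were called by limma (2 and 1 at an unadjusted p under 0.05 in lrKO at 2 weeks and 2 months, and 3 in srKO).

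Of 13 probe sets for EGF and nerve growth factor ligands and receptors, 6 rose in prKO at 2 months (median 0.23, with 0.01 over all and 24.8% of all called higher), led by the EGF receptor gene Egfr (1.37 ± 0.13), Igfbp3 (1.36 ± 0.16), Erbb3 (1.19 ± 0.39) and Egf itself (0.75 ± 0.12). In srKO at 2 months Egfr (0.59) and the ligand gene Hbegf (0.25) rose (median 0.10, with 0.03 over all and 13.7% of all called higher), and in prKO at 2 weeks Egfr rose (0.90 ± 0.14) and the ligand gene Tgfa fell by 0.26 (median 0.02, with -0.02 over all, 7.50% higher and 2.53% lower). In lrKO at both ages and in srKO at 2 weeks 0 of 13 were called (3 and 1 at an unadjusted p under 0.05 in lrKO at 2 weeks and 2 months, and 2 in srKO).

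Of 7 androgen-responsive testis genes, 2 rose and 4 fell in prKO at 2 months (median -0.34, with 0.01 over all, 24.8% higher and 22.6% lower), with Clmn at -1.80, Fabp12 at -1.24, the Sertoli cell homeobox gene Rhox5 at -0.93 and Tubb3 at 0.90. In srKO 2 rose and 4 fell (median -0.70, with 0.03 over all, 13.7% higher and 10.3% lower), with Clmn at -1.77, Fabp12 at -0.91, Tubb3 at 0.84 and Eppin at -0.75, and in lrKO 0 of 7 were called (1 at an unadjusted p under 0.05). At 2 weeks Drd4 (0.77) and Fabp12 (0.40) rose in prKO (median 0.15, with -0.02 over all and 7.50% of all called higher), Rhox5 rose in lrKO (0.71, adjusted p = 0.0331; median 0.26, with -0.01 over all and 0.0368% called higher), and 0 of 7 were called in srKO (2 at an unadjusted p under 0.05).

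Genes outside the family whose levels followed the mean of the 6 probe sets most closely over all 39 arrays were Crcp (r = 0.975), Lmf1, Cfap161, Wdr53 and Fuz (each r = 0.96); these arrays span both ages. Over the 19 arrays of 2 months they were Cacng2 (r = 0.90), Syt13 (0.85), Tuft1 (0.81), Teddm3 (0.78) and Kcnk16 (0.77). Taken gene by gene over the same 19 arrays, a step added after the values were seen, Klk1b24 was closest to Syt13 (r = 0.90). Klk1 was closest to Prkar2a (r = 0.973), which codes for a regulatory subunit of protein kinase A. Nearly as close to Klk1 were Kif2c (0.971), Oxct2b (0.97), Herpud1 (0.966) and Tex37 (0.964). Group means were not removed, so these r also hold the gap in Klk1 of prKO and srKO from WT and lrKO. Spermatid markers showed that gap too. No link between Klk1 and any of these genes was tested. Over all 39 arrays the genes closest to Klk1 were Spata32 (0.97), Noxred1 (0.966), Fam71a (0.965), Fscn3 (0.965) and Prss58 (0.963).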

How the data were processed

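Per the labels, RNA of whole testes was hybridised to Affymetrix GeneChip arrays, and per the submitters' processing notes the authors normalized with RMA; its version and settings: not given in the sources used here. The deposited values are log2 intensities of 41345 probe sets, used as deposited. Such values have no read depth, so precision rests on the number of arrays (3 to 8 a group). Probe sets were named from GEO's platform annotation (23521 with 1 symbol, 1814 with several, 16010 with none). Groups and replicates came from the titles. limma 3.58.1 (R 4.3.3) was fitted on the 21760 probe sets with a symbol and a group mean above the 25th percentile of all values, 4.62, per age for line comparisons and over all 8 groups across ages, with Benjamini-Hochberg adjustment and calls at an adjusted p under 0.05; it was tested on simulated data. A p measures the spread between arrays. Named are all members and up to 4 called genes of each list and comparison with the largest change. The members, lists and alternatives were chosen with earlier results of these data known. Promoters and gene order came from RefSeq (GRCm38.p6), and windows were aligned with Biopython. Alternatives were other filters, normalizations, weights, sample sets, the replicate block, either set of 4 WT replicates and leaving out each array.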

Additional observations from a re-analysis of the deposited data

Results flagged for a closer look

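The change against WT differed between the ages, by an interaction term in limma, for Klk1 in prKO (-1.33) and in the arrays labelled srKO (-2.34), for Klk1b24 in prKO (-1.69) and for Klk1b22 in lrKO (-2.85), each as the change at 2 months minus that at 2 weeks on the log2 scale. At 2 weeks Klk1 (3.94 to 5.83) and Klk1b22 (4.00 to 4.96) were close to the filter value of 4.62 in all groups. Klk1b24 was higher than WT at 2 weeks and spread widely at 2 months, from 8.91 to 11.68 in the 3 prKO arrays. In 1 of 42 combinations of a member and a group of 4 to 8 arrays, a single array lay far from the others by Dixon's test: WT replicate 1 at 2 weeks read 4.96 for Klk1b22, with the nearest array at 4.47, a gap of 0.565 of the whole range. Chance marks about 1 in 20 such groups.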

How the results depend on the processing

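Calls that held under every alternative run were Klk1b27 in prKO at 2 weeks against each other group, Klk1b24 in prKO against srKO at 2 weeks, Klk1 in prKO and srKO at 2 months, Klk1 in both against lrKO, Klk1b22 in srKO against lrKO, and the age difference of Klk1 in srKO. With age in WT, all 6 members were called in every alternative that kept their probe set. The number of members called otherwise moved as follows. In prKO at 2 weeks it was 2, and 1 without the arrays high in Adam7, 1 against WT replicates 1 to 4, 4 against WT replicates 5 to 8, and 1 to 3 when single arrays were left out. In srKO at 2 weeks it was 0, and 2 with array weights; in lrKO it was 0, and 1 against WT replicates 1 to 4. In prKO at 2 months it was 1, 3 without the arrays high in Adam7 and 1 to 3 with single arrays left out. In srKO it was 1, and 2 with array weights or only the groups compared. In lrKO it was 0, and 1 with quantile normalization, with array weights, without the arrays high in Adam7, with only the groups compared, with all 8 groups in 1 fit and against WT replicates 1 to 4.

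Between lines at 2 weeks, prKO against lrKO gave 2, 1 without the arrays high in Adam7 and 1 to 2 with single arrays left out; srKO against lrKO gave 1, 0 with a trended robust fit and 0 to 1 with single arrays left out. At 2 months prKO against srKO gave 0, 1 without the arrays high in Adam7 and 0 to 2 with single arrays left out. At that age prKO against lrKO gave 2, 1 with no filter, with centred arrays, with a trended robust fit or with only the groups compared, 4 without the arrays high in Adam7 and 1 to 5 with single arrays left out. Age differences gave 2 in prKO, 1 with array weights, without the arrays high in Adam7 or against WT replicates 5 to 8, and 1 to 3 with single arrays left out; 1 in srKO, 3 with array weights; and 1 in lrKO, 0 with a trended robust fit or against WT replicates 5 to 8 and 0 to 1 with single arrays left out. The single sign change that ended in a call was Klk1b24 in prKO against lrKO at 2 months, at -0.03, which ranged from -0.66 to 0.72 when single arrays were left out and was called at 0.72 (adjusted p = 0.0493) without prKO replicate 1. In 70 other cases a difference changed sign with neither value called. The cause was not tested, apart from the arrays named.

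Over all probe sets the count called moved by over 1.5 times in these comparisons: prKO at 2 weeks from 2183 to between 668 and 5372, srKO from 166 to between 38 and 2146, lrKO from 22 to between 3 and 1160, and lrKO at 2 months from 43 to between 22 and 166. Among lines it did so for srKO against lrKO (371, 103 to 2805), prKO against lrKO (3543, 2021 to 5450) and prKO against srKO (2553, 1627 to 4054) at 2 weeks and prKO against srKO at 2 months (5413, 1131 to 5831), and for the age difference in lrKO (22, 13 to 111). Replicate numbers did not pair the arrays: the deviations of same-numbered arrays correlated above 0.1 in 5 of 24 pairs at 2 weeks and 1 of 21 at 2 months. With the replicate number as a block, 1 member was called in lrKO against WT at 2 weeks (Klk1). That difference rests on the same WT arrays as the one against WT replicates 1 to 4 alone, so it is not a separate result. With the block, 1 member was called in prKO against lrKO at 2 months, and the other counts of members stayed within 1.5 times. Keeping 1 probe set per gene dropped that of Klk1b26, and so did the stricter filter (the 50th percentile of all values, 5.94). Values near 4.62 are close to background, which limits Klk1, Klk1b22 and Klk1b27 at 2 weeks.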
